A study of Mus musculus with 6 samples.

Results

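Cytosolic ribosomal proteins are the proteins of the ribosome outside mitochondria, and 41 of their protein-coding genes were followed here among the 48005 gene identifiers of a mouse heart RNA-seq table. The members were taken from a list of symbols by matching the table's Ensembl identifiers to mouse gene names, and all 41 were found. The large (60S) subunit contributed 27 genes and the small (40S) subunit 14. Hearts of 3 wild-type and 3 knock-in mice of the C57BL/6 strain were compared. The wild-type mice carried a floxed Txnip gene. The knock-in mice were conditional and carried Txnip with its PPXY motif changed to AAXA. Both groups carried MerCreMer, a Cre recombinase switched on by a tamoxifen derivative, and both received 4-hydroxytamoxifen. Txnip is an alpha-arrestin that binds ubiquitin ligases through PPXY motifs. The labels give no promoter for MerCreMer, no age and no sex, and they give no measure of how many cells carried the changed allele. The submitters describe the wild-type hearts as shared with another series, so a difference in handling between the groups and the genotype cannot be told apart.

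Each ribosome holds 1 copy of nearly every ribosomal protein, and cells make these proteins from many unlinked genes in balanced amounts. Their mRNAs are short and abundant, and most begin with a run of pyrimidines, the 5' terminal oligopyrimidine (TOP) tract, through which mTOR signalling and the RNA-binding protein LARP1 control their translation. In the heart, ribosome content is known to follow growth and loss of muscle mass. The mRNA level measured here reports neither the translation of these mRNAs nor the number of ribosomes.

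The RefSeq sequence around the annotated start (GRCm38.p6) was at hand for 33 of the members, in 38 windows that run from 250 bases before to 50 bases after the start. A pyrimidine run of at least 8 bases lay between 20 bases before and 50 bases after the start in 25 of these 38 windows (65.8%), against 25.4% of 32851 windows of all genes. The motif CCGGAAG, on either strand, lay in 36.8% of the members' windows and in 8.86% of all, and TATAAA in 7.89% and 13.6%. The 30-base windows below are the 6 members with the longest run, with the P-stalk gene Rplp2 added, each 5' to 3' with the run in capitals. Relative to the annotated start, the runs begin at base -17 (Rpl34), -7 (Rpl35), 13 (Rpl11), -4 (Rpl15), 26 (Rpl4), 35 (Rps23) and -5 (Rplp2). That of Rps23 reaches the end of the window. Picked for length, these runs do not stand for the whole family, and whether they are TOP tracts was not tested. Rpl34 lies at chr3:130730330-130730359 (minus strand), Rpl35 at chr2:39005115-39005144 (minus), Rpl11 at chr4:136053358-136053387 (minus), Rpl15 at chr14:18270968-18270997 (minus), Rpl4 at chr9:64173405-64173434 (plus), Rps23 at chr13:90923142-90923171 (plus) and Rplp2 at chr7:141447636-141447665 (plus).
Rpl34: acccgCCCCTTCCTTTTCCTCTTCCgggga
Rpl35: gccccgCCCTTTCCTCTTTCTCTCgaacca
Rpl11: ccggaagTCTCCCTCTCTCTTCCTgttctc
Rpl15: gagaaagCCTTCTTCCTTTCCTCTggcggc
Rpl4: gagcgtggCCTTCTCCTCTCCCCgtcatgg
Rps23: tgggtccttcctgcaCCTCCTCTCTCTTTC
Rplp2: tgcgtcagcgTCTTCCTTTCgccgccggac

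The table held between 30329004 and 30625093 counts per wild-type library and between 31989883 and 34016586 per knock-in library. Levels are in CPM, with library sizes adjusted by TMM factors. Txnip reached 887, 939 and 886 CPM in wild-type hearts and 363, 751 and 670 CPM in knock-in hearts, with no overlap and no call by edgeR (adjusted p = 0.0698) or limma-voom, while DESeq2 called it lower, a level that does not test for a changed motif. Coverage at the 3' end relative to the 5' end, as a median log2 ratio over 1700 long genes, stood at 0.69, 0.48 and 0.28 for wild-type and at -0.09, -0.24 and -0.17 for knock-in libraries. These ranges do not overlap. Of the marker genes of other cell types, edgeR called lower 3 of 8 for smooth muscle (summed level 499 to 540 CPM in wild-type and 279 to 499 CPM in knock-in hearts), 2 of 9 for endothelium (958 to 1307 and 692 to 1019 CPM), 1 of 9 for macrophages (242 to 275 and 205 to 219 CPM) and 1 of 10 for fibroblasts (866 to 943 and 813 to 960 CPM). Of 9 blood and platelet markers (568 to 768 and 715 to 1353 CPM), Hbb-bs was called higher and Ppbp, Pf4 and Itga2b lower. DESeq2 called lower 4 smooth muscle, 4 endothelial and 2 fibroblast markers. The 9 cardiomyocyte markers summed to 88366 to 92231 and 95148 to 100776 CPM with none called by edgeR, 2 of them at an unadjusted p under 0.05, and 1 called higher by DESeq2 and 2 by limma-voom. Of 10 lymphocyte markers, 8 were too low to be tested, and of the other 2 Cd74 was called lower by all 3 tools. The second went the other way, with a log2 fold change of 1.12 (edgeR unadjusted p under 0.05) and no call by any tool. In bulk tissue, fewer cells of a type and less RNA per cell cannot be told apart, and the part of coverage or of cell markers in the results was not tested.

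Of the 41 ribosomal protein genes, 1 passed the test: Rpl13, a large subunit protein, was lower in knock-in hearts, and no member was called higher. With edgeR's quasi-likelihood test and Benjamini-Hochberg adjustment over 13066 genes, 4.09% of all genes were called lower and 6.74% higher, so 1 in 41 called lower was near the background. The median log2 fold change (knock-in minus wild-type) was -0.15 over the members and -0.004 over all genes, and 35 of the 41 members were below 0, against 50.5% of all genes. At an unadjusted p under 0.05 there were 3 members, Rpl13, Rplp2 and Rpl6, all lower, where 27.7% of all genes reached that level. DESeq2 and limma-voom each called Rpl13 and Rplp2 lower and no member higher. Of all genes they called 3.54% and 4.24% lower and 5.42% and 7.13% higher. For both tools, 2 in 41 called lower was near the background. Every knock-in heart was below every wild-type heart for 4 members (Rpl13, Rpl6, Rpl14 and Rpl23), against 14.0% of all genes, and above for none, against 16.7%. The 95% interval of the change lay within 1.5-fold in both directions for 37 of the 41.

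**Figure D1:**
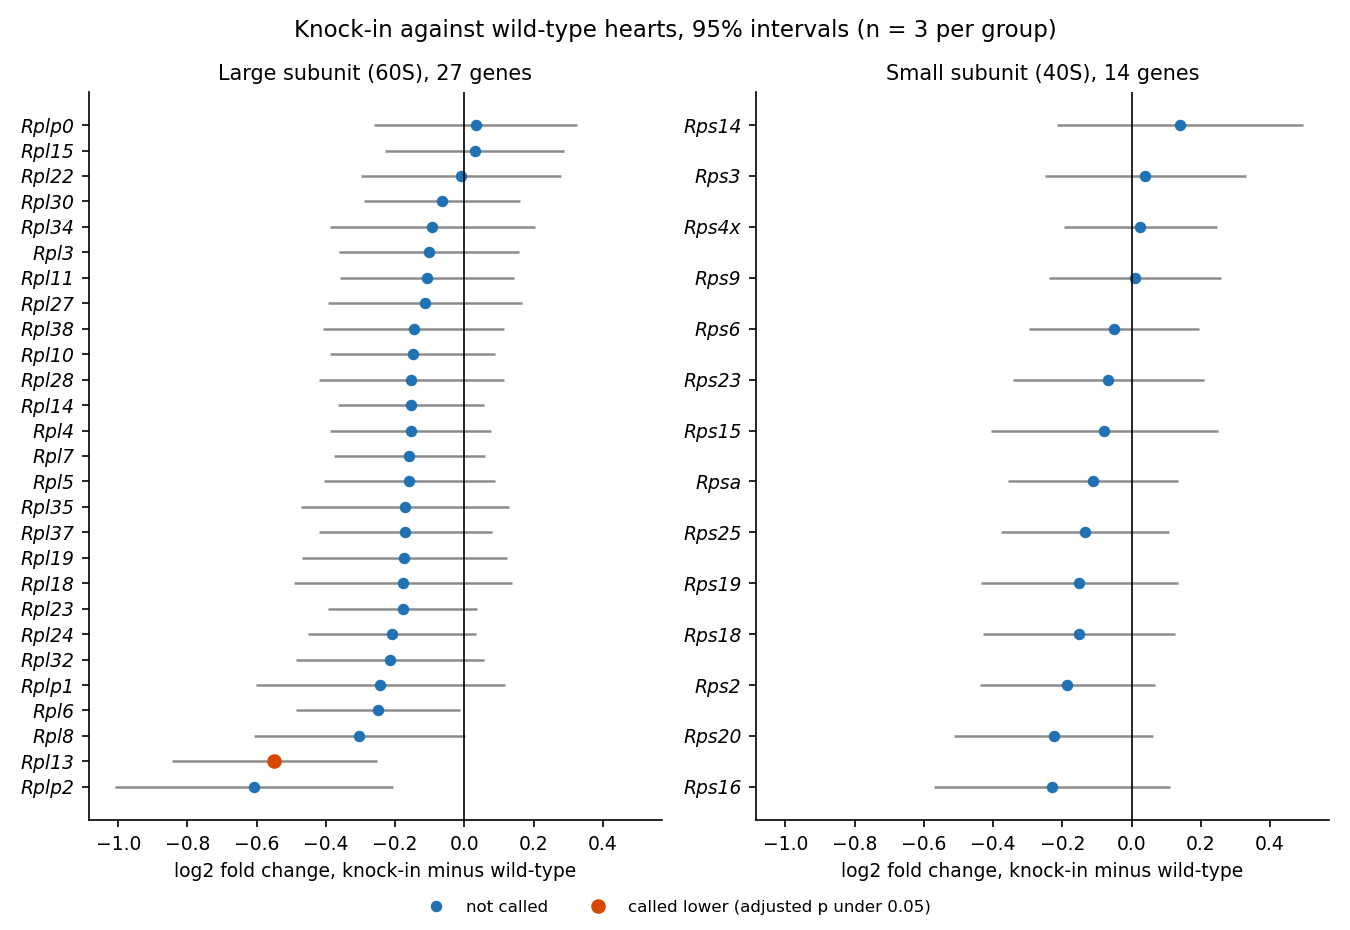
Log2 fold change of each ribosomal protein gene (points) with its 95% interval (lines), knock-in minus wild-type, in the large subunit (left, 27 genes) and the small subunit (right, 14 genes), 3 hearts per group. Rpl13 (orange) is the 1 gene called lower, and 35 of the 41 points lie left of 0.

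The large subunit had a median log2 fold change of -0.16, with 25 of 27 genes below 0 and 1 called. The small subunit had a median of -0.10, with 10 of 14 below 0 and none called by edgeR, DESeq2 or limma-voom, or at an unadjusted p under 0.05 in edgeR. The difference between the subunits was not tested. Gene length was set beside the fold changes. Tested genes were put into 5 equal classes by exonic length, and 22 members lay in the shortest class (57 to 2223 bases). All 2614 genes of that class had a median log2 fold change of -0.19, with 7.92% called lower, and its 22 members had a median of -0.15 with none called. The 13 members of the next class had a median of -0.11, against -0.06 for all its genes. The 5 members of the middle class had a median of -0.16, with 4 below 0, against 0.006 for all its genes. Exonic length here covers all transcripts of an identifier. The reference transcripts of these 5 are shorter: 2045 bases (Rpl5), 679 (Rpl18), 1908 (Rps3), 633 (Rps19) and 3706 (Rps20). The class therefore does not match them to other genes by mRNA length. The 1 member of the longest class, the joined identifier of Rpl24, stood at -0.21, against a median of 0.20.

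**Figure D2:**
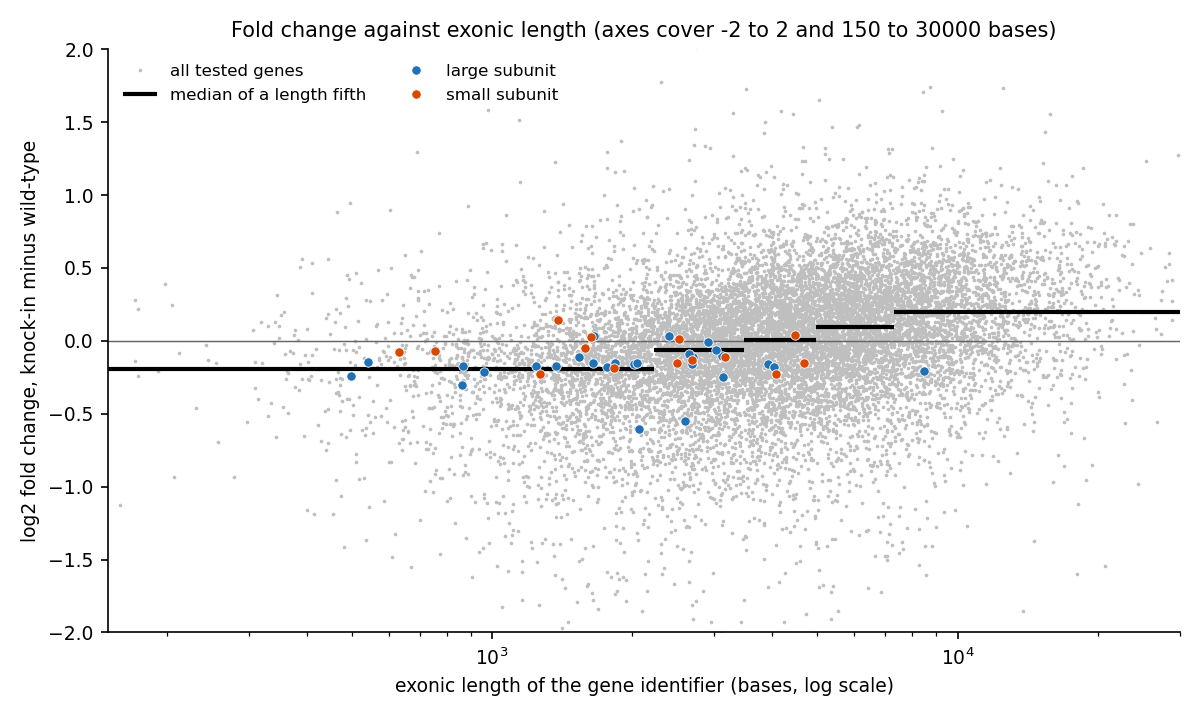
Log2 fold change (knock-in minus wild-type) against exonic length in bases (log scale) for all tested genes (grey), large subunit genes (blue) and small subunit genes (orange), with black bars for the median of each of 5 classes of genes by length. The median runs from -0.19 in the shortest to 0.20 in the longest class, and the 22 members of the shortest class have a median of -0.15.

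The hearts did not divide by genotype. After centring each gene on its mean over the 6 hearts, the median over the 41 members was 0.14, 0.15 and -0.07 log2 units in wild-type hearts 1 to 3 and 0.14, -0.13 and -0.21 in knock-in hearts 1 to 3. Knock-in heart 1 thus lay with wild-type hearts 1 and 2, and wild-type heart 3 lay between them and the other 2 knock-in hearts. Knock-in heart 3 was the lowest of the 6 for 31 members, knock-in heart 2 for 7 and wild-type heart 3 for 3. Knock-in heart 1 was the highest for 16 members, as many as wild-type heart 2, and wild-type heart 1 for the other 9. The members took 1.68%, 1.71% and 1.45% of all counts of wild-type and 1.60%, 1.33% and 1.29% of knock-in libraries. Without knock-in heart 1, edgeR called 5 members lower (Rpl8, Rpl13, Rplp1, Rplp2 and Rps20), all 41 were below 0 and the median was -0.26, in a fit that called 6.75% of all genes lower. Without wild-type heart 3 it called Rpl13 and Rplp2, with 40 of 41 below 0 and 6.89% of all genes called lower. Without wild-type heart 1 or 2, or knock-in heart 2 or 3, it called none, with 2 members at an unadjusted p under 0.05 in each of the 4 fits, which called 0.612%, 0.837%, 0.444% and 1.24% of all genes lower. Knock-in heart 1 was also the heart with the lowest Txnip level.

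**Figure D3:**
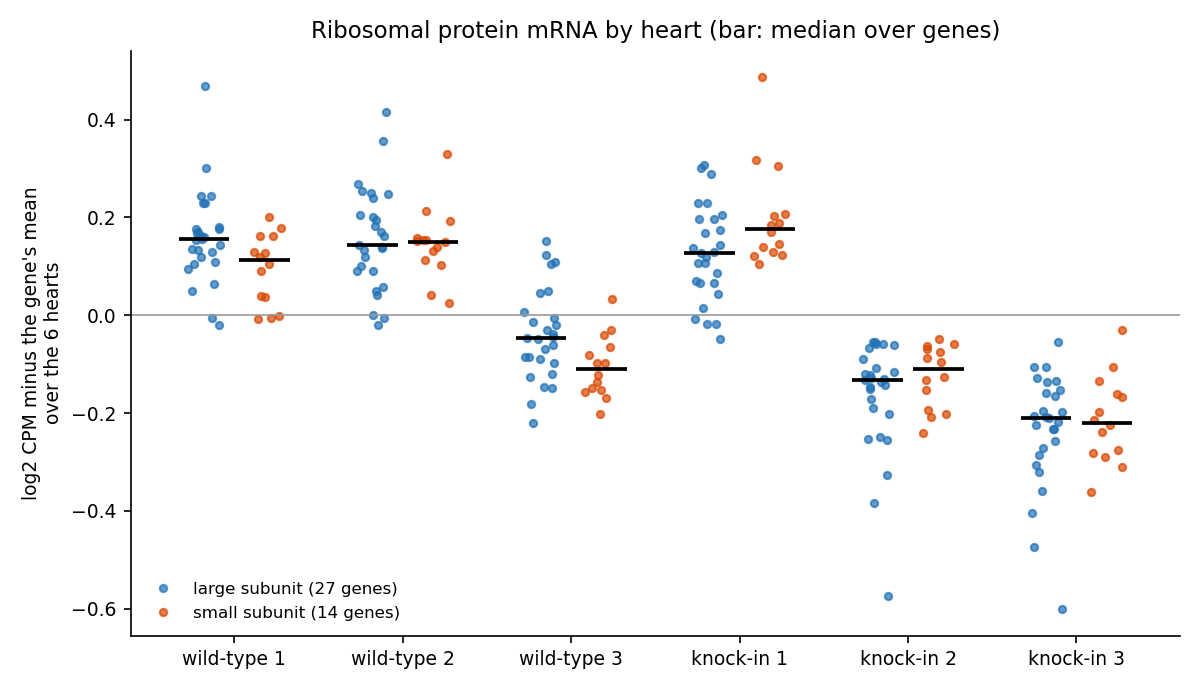
Log2 CPM of each ribosomal protein gene minus its mean over the 6 hearts, by heart, for the large subunit (blue, 27 genes) and the small subunit (orange, 14 genes), with a bar at the median over genes. Knock-in heart 1 sits with wild-type hearts 1 and 2, with large subunit medians of 0.13, 0.16 and 0.14, and knock-in heart 3 is lowest.

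Rpl13, a structural protein of the large subunit, was the member called lower. The gene lies on the plus strand of chromosome 8 (chr8:123102350-123105244, GRCm38) and has 6 exons in the reference transcript. Its level was 270, 292 and 239 CPM in wild-type hearts and 221, 168 and 158 CPM in knock-in hearts. All 3 knock-in hearts lay below all 3 wild-type hearts, with knock-in heart 1 nearest to them. Averaged by group this gave 267 ± 26.8 against 182 ± 34.2 CPM (SD, n = 3 each), a level 1.46-fold lower, with a log2 fold change of -0.55 ± 0.14 (SE, edgeR adjusted p = 0.0259). The call was lost without wild-type heart 1 (edgeR adjusted p = 0.1004), wild-type heart 2 (0.126), knock-in heart 2 (0.134) or knock-in heart 3 (0.0990), with log2 fold changes of -0.57, -0.49, -0.49 and -0.47. It was also lost with bins of the last 1000 exonic bases only (log2 fold change -0.09, edgeR adjusted p = 0.728), a fit that also rescaled the libraries.

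The P-stalk, made of Rplp0, Rplp1 and Rplp2, is the arm of the large subunit that recruits translation factors with GTPase activity to the ribosome, and none of its 3 genes was called by edgeR. Rplp2, on chromosome 7 (chr7:141447712-141451350, plus strand), reached 441, 408 and 354 CPM in wild-type hearts and 365, 214 and 210 CPM in knock-in hearts. Knock-in hearts 2 and 3 were well below all wild-type hearts, and knock-in heart 1 lay inside the wild-type range. The log2 fold change of -0.61 ± 0.19 (SE) was the lowest of the 41 and was not called (edgeR adjusted p = 0.0536), while DESeq2 and limma-voom called it lower.

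Rplp1, the partner of Rplp2 in the stalk's dimers, had the highest level per coding kilobase of the family. It stood at 1794, 1797 and 1434 CPM per coding kilobase in wild-type hearts and 1858, 1210 and 1196 in knock-in hearts. Knock-in heart 1 was the highest of the 6 and the other 2 knock-in hearts were the lowest, and the log2 fold change of its gene sum was -0.24 ± 0.17 (SE, edgeR adjusted p = 0.369). Rplp0, the scaffold that anchors both to the ribosome, reached 953, 1065 and 872 CPM in wild-type and 1197, 927 and 831 CPM in knock-in hearts. The highest and the lowest of these values were both knock-in hearts, and its log2 fold change was 0.03 ± 0.14 (SE, edgeR adjusted p = 0.904). The differences between the 3 stalk genes were not tested.

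Around the catalytic core, Rpl3 and Rpl8 reach close to the site where peptide bonds form. Rpl8 had 342, 330 and 298 CPM in wild-type hearts and 326, 242 and 218 CPM in knock-in hearts. Knock-in heart 1 overlapped with the wild-type range, and the log2 fold change was -0.30 ± 0.14 (SE, edgeR adjusted p = 0.181). Rpl3 had the lowest level per coding kilobase of the family, 143, 142 and 116 CPM per coding kilobase in wild-type and 138, 115 and 111 in knock-in hearts, with overlap and a log2 fold change of its gene sum of -0.10 ± 0.12 (SE, edgeR adjusted p = 0.618). Striated muscle uses a paralog, Rpl3l, in place of Rpl3. Rpl3l stood above Rpl3 in every heart, at 235, 226 and 227 CPM per coding kilobase in wild-type and 233, 203 and 187 in knock-in hearts. Its own change was not called (log2 fold change -0.15 ± 0.11 SE, edgeR adjusted p = 0.396), so both genes of the pair lay slightly below 0.

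Among the other large subunit members, 3 had groups that were apart and none was called. Rpl6 reached 509, 531 and 436 CPM in wild-type and 435, 423 and 383 CPM in knock-in hearts. The groups were apart by less than 1 CPM, between wild-type heart 3 and knock-in heart 1, and the log2 fold change was -0.25 ± 0.11 (SE, edgeR adjusted p = 0.158). Rpl23, which faces the small subunit, reached 594, 527 and 568 CPM in wild-type and 522, 479 and 492 CPM in knock-in hearts, also without overlap. Its log2 fold change was -0.18 ± 0.10 (SE, edgeR adjusted p = 0.269). Rpl14 was likewise apart, at 308, 307 and 298 CPM against 284, 277 and 258 CPM, and its log2 fold change was -0.15 ± 0.10 (SE, edgeR adjusted p = 0.334).

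Rpl24, a protein of the bridge between the subunits, reached 393, 400 and 348 CPM in wild-type and 370, 309 and 307 CPM in knock-in hearts. Knock-in heart 1 lay inside the wild-type range (log2 fold change -0.21 ± 0.11 SE, edgeR adjusted p = 0.248). The identifier of Rpl24 also holds bins of an overlapping gene on the same strand, Zbtb11, so its sum is not of Rpl24 alone. Rpl22, which is dispensable in most mouse cells because its paralog Rpl22l1 can stand in, had the largest p of the family. It reached 207, 204 and 189 CPM in wild-type and 244, 172 and 180 CPM in knock-in hearts, with the knock-in hearts on both sides of the wild-type range (log2 fold change -0.01 ± 0.13 SE, edgeR adjusted p = 0.975). Rpl22l1 reached 38.6, 34.5 and 40.5 CPM in wild-type and 39.5, 25.5 and 32.8 CPM in knock-in hearts, with overlap and no call (edgeR adjusted p = 0.393). Rpl5 and Rpl11, which join 5S rRNA in a particle that can also bind and inhibit the p53 ligase Mdm2, had log2 fold changes of -0.16 and -0.11 (edgeR adjusted p = 0.390 and 0.584). The other 14 large subunit genes had log2 fold changes between -0.21 (Rpl32) and 0.03 (Rpl15), and none was called.

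In the small subunit no gene was called, and the log2 fold changes ran from -0.23 (Rps16) to 0.14 (Rps14). Rps25 had the highest mean level per coding kilobase of the 14 in wild-type hearts, while in knock-in hearts that of Rps14 was higher (1084 against 975). Rps25 stood at 1091, 1164 and 985 CPM per coding kilobase in wild-type and 1112, 893 and 918 in knock-in hearts. Rps6, the substrate of the S6 kinases downstream of mTOR, had the lowest, at 324, 362 and 302 in wild-type and 342, 304 and 282 in knock-in hearts on the same scale. Both overlapped between the groups, with log2 fold changes of -0.13 ± 0.11 and -0.05 ± 0.11 (SE, edgeR adjusted p = 0.467 and 0.809). Rps9, a protein that takes part in accurate decoding, reached 588, 615 and 514 CPM in wild-type and 652, 546 and 532 CPM in knock-in hearts. Rps4x, the X-linked copy of Rps4, reached 414, 410 and 377 CPM in wild-type and 441, 386 and 395 CPM in knock-in hearts. For both genes knock-in heart 1 was the highest of the 6, and the log2 fold changes were 0.01 ± 0.11 and 0.03 ± 0.10 (SE, edgeR adjusted p = 0.962 and 0.900).

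The distribution of counts along each transcript was compared between the groups. For each member the counts of coding bins were split at the middle of the coding region into a 3' part and a 5' part, with 10 counts added to each. The log2 ratio of the 3' to the 5' part was lower in every knock-in heart than in every wild-type heart for 17 members, overlapped for 20 and was higher in every knock-in heart for 4 (Rpl13, Rpl8, Rps2 and Rplp2). Over 8354 protein-coding genes with at least 1000 counts, measured the same way, 37.8% were lower in every knock-in heart and 3.72% higher, so the share of members that were lower was near the background. The median difference was -0.08 over the members and -0.23 over all these genes. For Rpl13 the log2 ratio was 1.04, 0.85 and 1.28 in wild-type and 1.38, 1.70 and 1.82 in knock-in hearts, so its lower sum came with a larger deficit in the 5' than in the 3' part. Its difference of 0.58 stood at percentile 99.0 of all these genes, Rpl8 at 94.7, Rps2 at 93.3 and Rplp2 at 92.0. With 3 hearts against 3, an exact two-sided permutation test of any 1 of these ratios cannot go below p = 0.1.

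**Figure D4:**
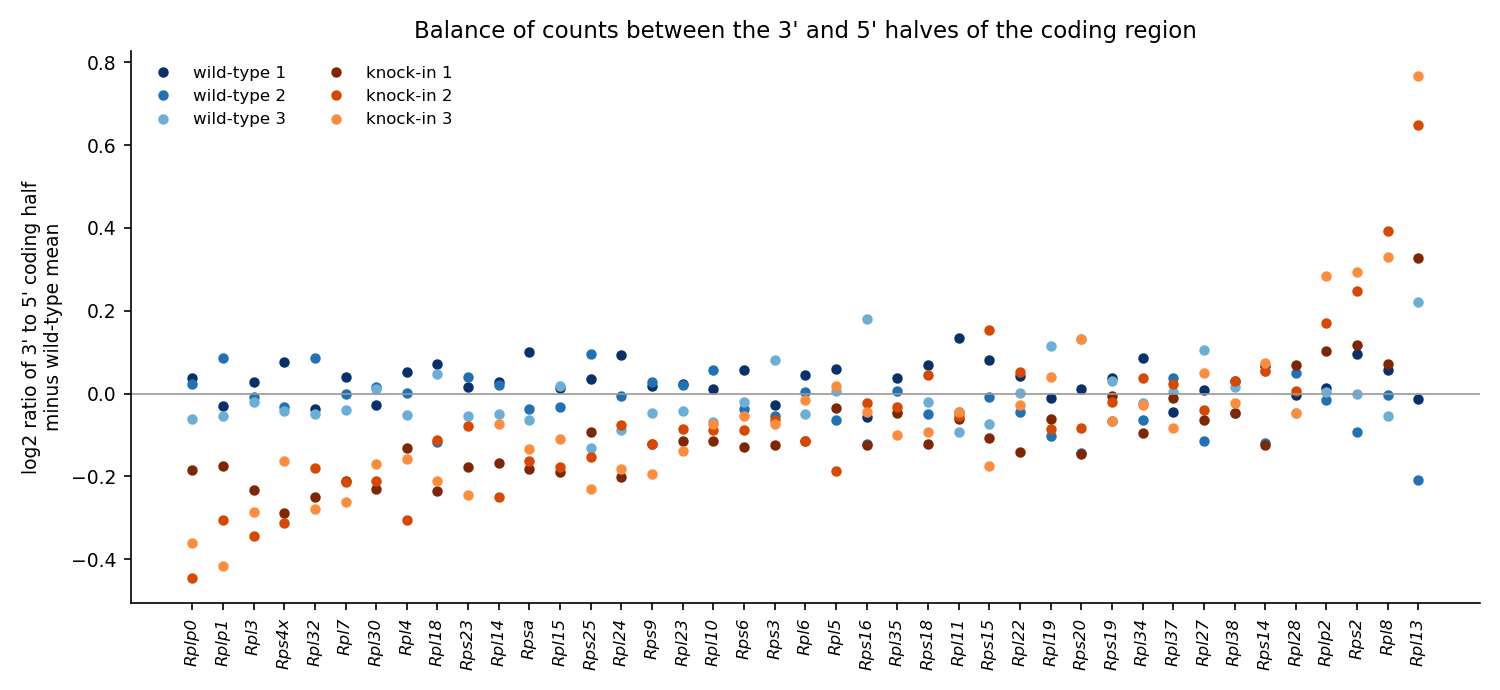
Log2 ratio of counts in the 3' part to counts in the 5' part of the coding region, split at its middle, minus the wild-type mean of each gene, with 1 point per heart for the 41 ribosomal protein genes ordered by the knock-in mean. Rplp2, Rps2, Rpl8 and Rpl13 at the right have all knock-in hearts above all wild-type hearts, and 17 genes, most of them at the left, have all knock-in hearts below.

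Base composition is given beside these 4 genes, which were picked for the pattern. The 5' coding parts of Rpl13, Rps2 and Rpl8 had the highest GC content of the 41, at 64.6%, 60.6% and 60.3%, and that of Rplp2 was at 54.7%. The coding parts below show exons towards the start of these 4 genes, whose counts are given next, with exon 5 of Rpl13 for comparison, from GENCODE transcripts on GRCm38, plus strand, 5' to 3', with CG dinucleotides in capitals. Exon 3 of Rpl13 (chr8:123102845-123102986) has 13 CG dinucleotides in 142 bases and a GC content of 70.4%. Its exon 5 (chr8:123103898-123103954) has 1 in 57 bases and 56.1%. Exon 2 of Rps2 (chr17:24720276-24720452) has 22 in 177 bases and 72.3%, exon 2 of Rpl8 (chr15:76904313-76904450) has 18 in 138 bases and 61.6%, and exon 2 of Rplp2 (chr7:141447909-141448031) has 11 in 123 bases and 57.7%.
Rpl13 exon 3: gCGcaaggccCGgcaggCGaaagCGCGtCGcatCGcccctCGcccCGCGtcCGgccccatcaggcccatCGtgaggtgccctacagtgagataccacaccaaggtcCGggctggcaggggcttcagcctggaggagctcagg
Rpl13 exon 5: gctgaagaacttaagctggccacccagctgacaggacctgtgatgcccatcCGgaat
Rps2 exon 2: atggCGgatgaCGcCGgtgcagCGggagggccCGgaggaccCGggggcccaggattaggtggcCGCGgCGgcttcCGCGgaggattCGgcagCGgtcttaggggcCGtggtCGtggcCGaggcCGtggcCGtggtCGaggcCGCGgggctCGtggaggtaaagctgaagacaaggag
Rpl8 exon 2: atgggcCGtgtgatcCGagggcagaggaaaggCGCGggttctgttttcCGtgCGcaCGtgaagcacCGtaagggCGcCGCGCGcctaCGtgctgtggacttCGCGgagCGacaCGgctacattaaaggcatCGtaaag
Rplp2 exon 2: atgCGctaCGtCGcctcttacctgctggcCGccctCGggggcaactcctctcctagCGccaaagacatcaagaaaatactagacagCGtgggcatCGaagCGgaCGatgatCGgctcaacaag

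Exon 3 of Rpl13 held 1783, 2019 and 1378 counts in wild-type hearts and 1230, 950 and 829 in knock-in hearts. Its exon 5 held 1680, 1754 and 1579 and then 1484, 1326 and 1307. Both bins were below in every knock-in heart, exon 3 by 1.78-fold (edgeR over single bins, adjusted p = 0.00489) and exon 5 by 1.26-fold (0.0661, not called). The 51-base bin that follows exon 3, outside the reference transcript, held 28, 31 and 14 counts against 4, 2 and 1, a log2 fold change of -3.37 ± 0.52 (SE, edgeR adjusted p = 0.000471) that rests on few counts.

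Rps2, a small subunit protein at the entrance of the mRNA channel, was not called as a gene, and its groups overlapped at 628, 649 and 598 CPM against 636, 535 and 478 CPM. Its exon 2 held 1567, 1923 and 1608 counts in wild-type and 1393, 1045 and 940 in knock-in hearts, and the bin was called lower (1.56-fold, edgeR over single bins, adjusted p = 0.0104). A 23-base bin of exon 1 held 185, 158 and 224 counts against 90, 55 and 49 (3.02-fold lower, adjusted p = 0.000350). In exon 4 of the same gene the counts were 5993, 6210 and 5563 in wild-type and 6230, 5777 and 5102 in knock-in hearts, with overlap and no call. Rpl8 exon 2 held 1879, 1820 and 1697 counts against 1683, 1055 and 1029, and was not called (adjusted p = 0.0519). Rplp2 exon 2 held 3544, 3321 and 2750 counts against 2876, 1828 and 1784, and was not called (adjusted p = 0.0524). In both, knock-in heart 1 was closest to wild-type, and knock-in hearts 2 and 3 lay together.

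**Figure D5:**
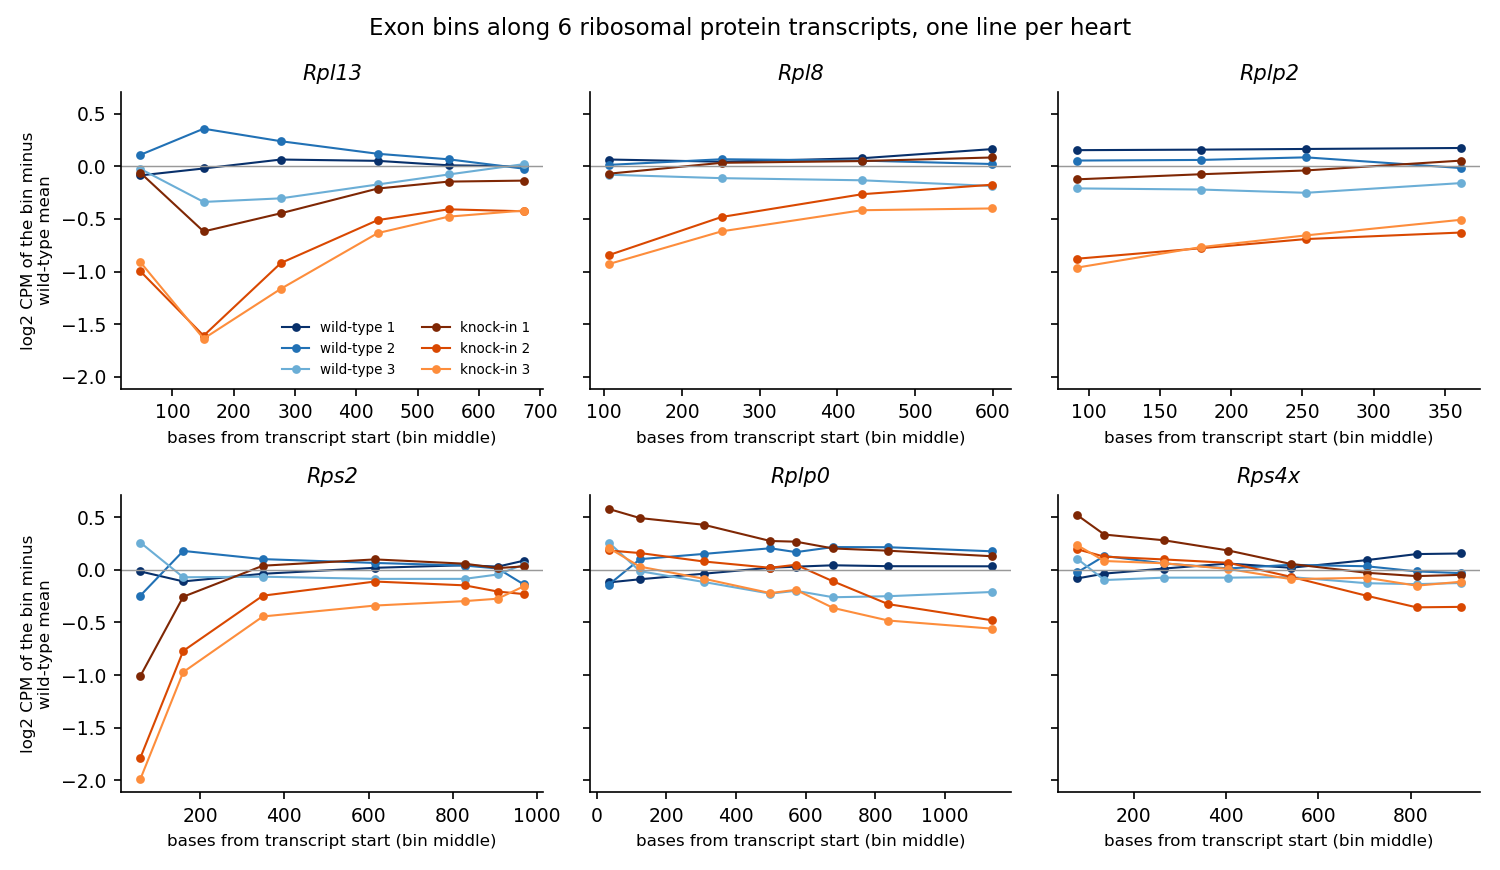
Log2 CPM of each exon bin minus the wild-type mean of that bin, against the distance of its middle from the transcript start in bases, 1 line per heart, for 6 ribosomal protein genes. In Rpl13, Rpl8 and Rps2 knock-in hearts 2 and 3 (light orange shades) are lowest at the start and approach the wild-type hearts (blue) towards the end, while in Rplp0 and Rps4x the knock-in lines slope the other way.

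Among 396 tested bins of the members, 11 were called lower (2.78%) and 1 higher (0.253%), against 3.49% and 12.8% of all 126958 bins, so the members' share called lower was near the background. Of the 11, 4 lay in Rpl13, 3 in Rps2 and 1 each in Rpl3, Rpl30, Rpl32 and Rpl34. The bin called higher is counted under Rpl24 but lies within Zbtb11. These fits used the library sizes of the gene sums, which set the median over all bins at 0.12, and the median over member bins was -0.14. With library sizes scaled over the bins, the medians were -0.02 and -0.28 and 48 of 396 member bins were called lower, against 8202 of all 126958 bins, a share above the background. With 1 heart left out, the fit without knock-in heart 2 gave 3 of 410 member bins lower, against 1407 of 130658 bins. Without knock-in heart 3 it gave 3 of 409, against 2277 of 130199. Without wild-type heart 2 it gave 4 of 402, against 1874 of 133120. Without wild-type heart 1 it gave 5 of 405, against 1879 of 132834. In each of these fits the members' share was below that of all bins. Without wild-type heart 3 it gave 38 of 407, against 6682 of 132721 bins, and without knock-in heart 1 it gave 50 of 407, against 5853 of 131670, both also above the background. Bins over 65% GC had a median log2 difference of -0.14 over all genes, against 0.14 in bins of up to 45% GC, while the members' bins had -0.14 and -0.16. The part of base composition in the values of Rpl13, Rpl8, Rps2 and Rplp2 was not tested.

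Near the 3' end of the transcripts, no member was called. Summed over the last 1000 exonic bases, 39 members could be tested and none was called lower or higher by edgeR (2 at an unadjusted p under 0.05, both higher), against 1.77% and 1.57% of 8287 genes. Their median was 0.06, with 12 of 39 below 0, and the median over all genes was -0.0047. Library scaling was recomputed on the kept bins. Rpl8 (862 exonic bases) and Rplp1 (499) kept all their bins here. Their log2 fold changes still moved from -0.30 to -0.07 and from -0.24 to -0.01. The members' median rose from -0.15 to 0.06, no more than these 2 genes did. Its rise is thus not a measure of the 3' end, whose part was not tested. Over the last 300 bases, 30 were tested and none called (1 at an unadjusted p under 0.05, higher), against 1.41% and 0.917% of 3053 genes, with a median of 0.08. With the highest bin of each gene only, none of the 41 was called (3 at an unadjusted p under 0.05, of them 2 lower), against 1.98% lower and 3.24% higher of all genes, and the median was -0.01. With offsets for exonic length and GC content fitted per library, Rpl13 was still lower (log2 fold change -0.41, edgeR adjusted p = 0.0249), and Rplp0, Rps14 and Rps15 were called higher, against 4.7% lower and 9.61% higher of all genes. In that fit the members' median was 0.01 and that of all genes 0.03.

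Of 36 further tested genes of the ribosomal protein family, edgeR called 1 lower and none higher, beside 4.09% and 6.74% of all genes, and the median log2 fold change was -0.13, with 32 below 0. The gene called was Rpl27a, at 343, 335 and 320 CPM in wild-type and 277, 184 and 161 CPM in knock-in hearts (log2 fold change -0.68 ± 0.17 SE, edgeR adjusted p = 0.0245). Rps13 came next (log2 fold change -0.47 ± 0.15 SE, edgeR adjusted p = 0.0623). DESeq2 and limma-voom each called 2 of the 36 lower, beside 3.54% and 4.24% of all genes. Of 7 tested paralogs none was called by edgeR (1 at an unadjusted p under 0.05, and 1 lower by DESeq2, none by limma-voom). That 1 was Rps27l, a p53 target related to Rps27, at 95.5, 107 and 81.1 CPM in wild-type and 79.4, 58.4 and 70.1 CPM in knock-in hearts (log2 fold change -0.45 ± 0.14 SE, edgeR adjusted p = 0.0561).

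Translation factors work with the ribosome at each step. Of 12 elongation and termination genes none was called by edgeR, limma-voom or DESeq2 (1 at an unadjusted p under 0.05 in edgeR, 1 in limma-voom, none in DESeq2), and the median was -0.02. Eef2, which moves the ribosome along the mRNA, reached 1292, 1296 and 1295 CPM in wild-type and 1623, 1544 and 1362 CPM in knock-in hearts, without overlap (log2 fold change 0.22 ± 0.10 SE, edgeR adjusted p = 0.170). Of 31 initiation factors edgeR called 2 higher and 1 lower, shares near the background of 6.74% and 4.09%, with a median of 0.04. DESeq2 and limma-voom each called 3 higher and 1 lower, beside 5.42% and 7.13% of all genes higher and 3.54% and 4.24% lower. Eif1, which guards start codon choice, fell (log2 fold change -0.40 ± 0.11 SE, edgeR adjusted p = 0.0319). Eif2s3x, a subunit of the factor that carries the initiator tRNA, and Eif4g2, a scaffold related to Eif4g1, were called higher (log2 fold changes 0.62 ± 0.14 and 0.43 ± 0.12 SE, edgeR adjusted p = 0.0205 and 0.0398).

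Among 7 other genes whose mRNAs carry a TOP tract, edgeR called Tpt1 lower and no other, beside 4.09% of all genes called lower. Their median was -0.007, with 4 of the 7 below 0. Hnrnpa1 was higher in every knock-in heart but not called (log2 fold change 0.30 ± 0.12 SE, edgeR adjusted p = 0.126). Tpt1 reached 1948, 1888 and 1847 CPM in wild-type and 1606, 1355 and 1322 CPM in knock-in hearts (log2 fold change -0.41 ± 0.10 SE, edgeR adjusted p = 0.0288). Of 15 genes that act on TOP mRNAs or on mTOR, edgeR called 2 higher and none lower, beside 6.74% of all genes called higher, with 8 at an unadjusted p under 0.05 and a median of 0.28. DESeq2 called 5 higher and limma-voom 2, beside 5.42% and 7.13% of all genes. Several are long, such as Tsc1 (11833 exonic bases), Mtor (10109) and Rptor (13471), and the median over all genes of the longest class was 0.20. The 2 called by edgeR were Eif4ebp2, an inhibitor of cap-dependent translation that mTOR switches off (0.69 ± 0.15 SE, edgeR adjusted p = 0.0157), and Tsc1, a brake on mTOR (0.73 ± 0.17 SE, edgeR adjusted p = 0.0191). Of 51 ribosome biogenesis genes none was called by edgeR (7 at an unadjusted p under 0.05, 1 lower by DESeq2, none by limma-voom), and the median was -0.08. Of 11 transcription factors linked to ribosomal protein genes none was called by any of the 3 tools (2 at an unadjusted p under 0.05 in each), with a median of 0.18.

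Ribosomal protein genes have many processed pseudogenes, spliced copies pasted back into the genome, and reads of a member can be placed on them. At 95% identity or more over at least 80% of the coding length, 38 of the 41 members had a copy among annotated pseudogenes, 211 in all, with a median of 4 per member and 26 for Rps2. Rpl8, Rplp2 and Rps3 had none. The counts listed for these copies came to 0.18% of the members' own counts. They exceeded 1% of the member for Rpl38 (2.80%) and Rps23 (1.09%). The treatment of reads that match several places is not given. These shares therefore do not show how many reads a member lost, or which members are the less certain. Adding the pseudogenes named for a member left the calls at 1 lower and none higher. Small RNA genes inside introns or exons share the identifiers of Rpl13 (Snord68 and Mir7079), Rplp2 (Snora52) and Rps2 (Snora64), so bins of these are in the sums. With only bins that overlap an exon of the member itself, Rpl13 stayed the 1 member called. The log2 fold change of Rpl24 went from -0.21 to -0.22, while those of Rpl13 and Rplp2 stayed the same. This setting therefore does not test the small RNA bins of Rpl13 and Rplp2.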

How the data were processed

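RNA of mouse hearts was isolated with a column kit and made into libraries with a NEBNext Ultra II kit, per the labels' protocols. The authors deposited raw read counts per exon bin (425461 bins). Per the submitters' processing notes they used STAR, featureCounts, Subread 1.5.2, DESeq2 and the build GRCm38.p6, with settings not given in the sources used here, among them the treatment of reads that match several places. A read that spans several bins may have been counted in each, so sums over bins may not be numbers of reads. Replicate numbers follow accession order and pair no hearts, and p-values measure the spread between these hearts. Reads are not known to be independent molecules.

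Bins were summed per identifier. Of 48005 identifiers, 1194 join overlapping genes and took the name of their single protein-coding gene; Rpl24 was kept by name. After filterByExpr and TMM scaling, edgeR 4.0.16 under R 4.3.3 ran the quasi-likelihood test (robust glmQLFit, then glmQLFTest). Adjusted p-values (Benjamini-Hochberg) under 0.05 were called. Single bins of at least 20 bases were fitted in the same way. Exons and names came from GENCODE M21. Alternatives were other scalings, filters and bin choices, DESeq2 1.42.0, limma-voom (limma 3.58.1), length and GC offsets, the library's ratio of 3' to 5' coverage as covariate, pseudogene counts added and each heart left out. On simulated counts for 12935 genes, 67 of 100 genes changed 1.5-fold and 100 of 100 changed 2-fold were recovered, with 3.47% false calls.

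The members and lists were chosen with earlier results of these data known. Values in every heart are given for the 6 members with the smallest and the 4 with the largest p, those with the highest and lowest level per coding base in each subunit, and up to 4 genes of each other list by smallest p. The level was taken per coding base in place of exonic base. Rpl14, Rps2, the ends of ranges and the single bins were chosen after their values were seen, and Rpl5 and Rpl11 for their role. Gene lists beyond the members get counts and medians, not set tests.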

Additional observations from a re-analysis of the deposited data

How the results depend on the processing

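The count of members called lower, 1 as reported, was 2 with upper-quartile scaling, library totals only, DESeq2, limma-voom or a filter of 1 CPM in 3 libraries, the second being Rplp2. Those fits called 5.62%, 5.36%, 3.54%, 4.24% and 5.24% of all genes lower, so 2 in 41 was near the background. The count called lower was 0 with bins of the last 1000 or 300 exonic bases, with the highest bin only and with the ratio of 3' to 5' coverage as covariate (no member at an unadjusted p under 0.05 in the last). Of all genes these fits called 1.77%, 1.41%, 1.98% and 0.00765% lower. With 1 heart left out it was 0 to 5, in fits that called 0.444% to 6.89% of all genes lower. The count called higher was 3 with length and GC offsets, where 9.61% of all genes were called higher, and 0 otherwise. The median of -0.15 became 0.063 with the last 1000 bases, 0.081 with the last 300, 0.0091 with length and GC offsets and 0.30 with the covariate, and ran from -0.26 to -0.10 with 1 heart left out. The covariate lies nearly along the groups, so that fit has little to compare. Library scaling was recomputed on the kept bins in the fits on the last 1000 or 300 bases and on the highest bin. Rpl8 and Rplp1, which lost no bin in the first of these, rose with that scaling. The causes of the other moves were not tested. The median of all genes was -0.08 with upper-quartile scaling and -0.07 with library totals only, and the members' median lay 0.15 below it in both. Of 318 values of the 14 members named by the rule, 8 lost and 10 gained a call, and 44 changed sign without a call in either fit. No paired analysis was possible because the replicate numbers follow accession order and pair no hearts. Depth did not limit the members: all 41 passed the filter, and precision was set by the spread among 3 hearts per group.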
